A study of Mus musculus with 3 samples.

Results

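The inorganic ion exchangers and cotransporters of the mouse gut lining were taken as every gene whose symbol belongs to the Slc4, Slc8, Slc9, Slc12, Slc24 or Slc26 family, which gave 47 of the 24346 genes listed. The Slc4 family (10 genes) moves bicarbonate, the Slc8 (3 genes) and Slc24 (5 genes) families exchange sodium for calcium, and the Slc9 family (9 genes) exchanges sodium for protons. The Slc12 family (9 genes) carries chloride together with sodium or potassium, and the Slc26 family (11 genes) exchanges chloride, bicarbonate, sulfate and other anions. RNA sequencing had been performed on epithelial cells shaken off mouse gut with EDTA, with 1 library for each of 3 regions, which were the large intestine and a lower and an upper part of the small intestine, and no replicate. The labels give no genotype, treatment, age or number of animals, and no strain for the large and lower libraries. The upper library carries a strain entry that names MC38, a mouse colorectal cancer model, so in comparisons with that library any effect of that background and the effect of region cannot be told apart. The study as a whole concerns the ectoenzyme E-NTPD8 and ATP in the inflamed colon, and these libraries survey the epithelium along the gut.

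As background, the gut absorbs salt without moving net charge by coupling an apical sodium/proton exchanger, mainly NHE3, to an apical chloride/bicarbonate exchanger, either DRA or PAT1. Secretion of chloride runs the other way: the basolateral cotransporter NKCC1 loads the cell and apical channels let chloride out. Bicarbonate in the cell enters through basolateral sodium bicarbonate cotransporters or is made by carbonic anhydrases.

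Levels below are FPKM, read fragments divided by transcript length and library size. They are per length, so genes can be set side by side, but each value depends on the transcript length used for that gene. Sets of 3 levels are in the order large, lower and upper. Differences are of log2(FPKM + 1), which makes those of low genes look smaller than they are. Genes under 1 FPKM in both libraries of a comparison were left out of it, and the measured ones were called higher or lower by size alone, at a 2-fold ratio of FPKM + 1. Brackets after a ratio are 95% Clopper-Pearson intervals from the number of reads that each FPKM implies. They cover counting error only: animals and preparations may differ by more, and these reads carry no molecular identifiers, so they need not be independent molecules. A region with 1 library allows neither a p-value nor an SD, and every difference describes these libraries.

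At 1 FPKM or more, the large library listed 11589 genes, the lower 11595 and the upper 11491. In a transcript of 2 kb, 1 FPKM stood for about 16.4 reads in the large library, 21.3 in the lower and 14.3 in the upper. The region labels were borne out by the 6 markers of large bowel, which summed to 6975, 6.15 and 2.80 FPKM, and by Fabp6, an ileal bile acid binding protein, at 38.3, 7245 and 0.416 FPKM. Lct, encoding lactase of the upper small bowel, was at 0.201, 33.4 and 356 FPKM. The 9 epithelial markers summed to 7598, 7912 and 5696 FPKM. Of these, none was higher in the large library against the lower and 2 were lower (9.75% and 10.5% of all genes). Against the upper, 3 were higher and 1 lower (11.2% and 11.7% of all genes). Vil1 (278, 913 and 974 FPKM) was lower in both comparisons, and Krt20 (361, 968 and 702 FPKM) against the lower alone. The 5 listed T cell markers summed to 14.4, 439 and 481 FPKM and the 8 other leukocyte markers to 3.95, 63.0 and 51.0 FPKM. The part of these leukocytes in the values below was not tested. Fibroblast and muscle markers (8 genes) summed to 2.31, 5.23 and 3.16 FPKM. Among these, the muscle genes Des and Acta2 were at 0, 0.088 and 0 FPKM and at 0, 0.107 and 0.106 FPKM. The 5 listed red cell markers summed to 7, 13.7 and 7.59 FPKM, mostly from Hba-a1, and the 3 endothelial markers to 1.31, 1.40 and 0.963 FPKM. In such bulk samples fewer cells of a type and less RNA per cell cannot be told apart.

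Of the 47 members, 15 reached 10 FPKM in at least 1 library, 7 peaked between 1 and 10 FPKM, and 25 stayed below 1 FPKM in all libraries. The 47 genes together summed to 1244, 469 and 611 FPKM. The Slc26 family supplied most of the excess of the large library, with 706, 162 and 220 FPKM. Its member of highest FPKM was Slc26a3 in the large library and Slc26a6 in both others. The Slc9 family summed to 200, 95.6 and 114 FPKM, the Slc12 family to 193, 139 and 162 FPKM and the Slc4 family to 138, 72.7 and 114 FPKM.

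**Figure D1:**
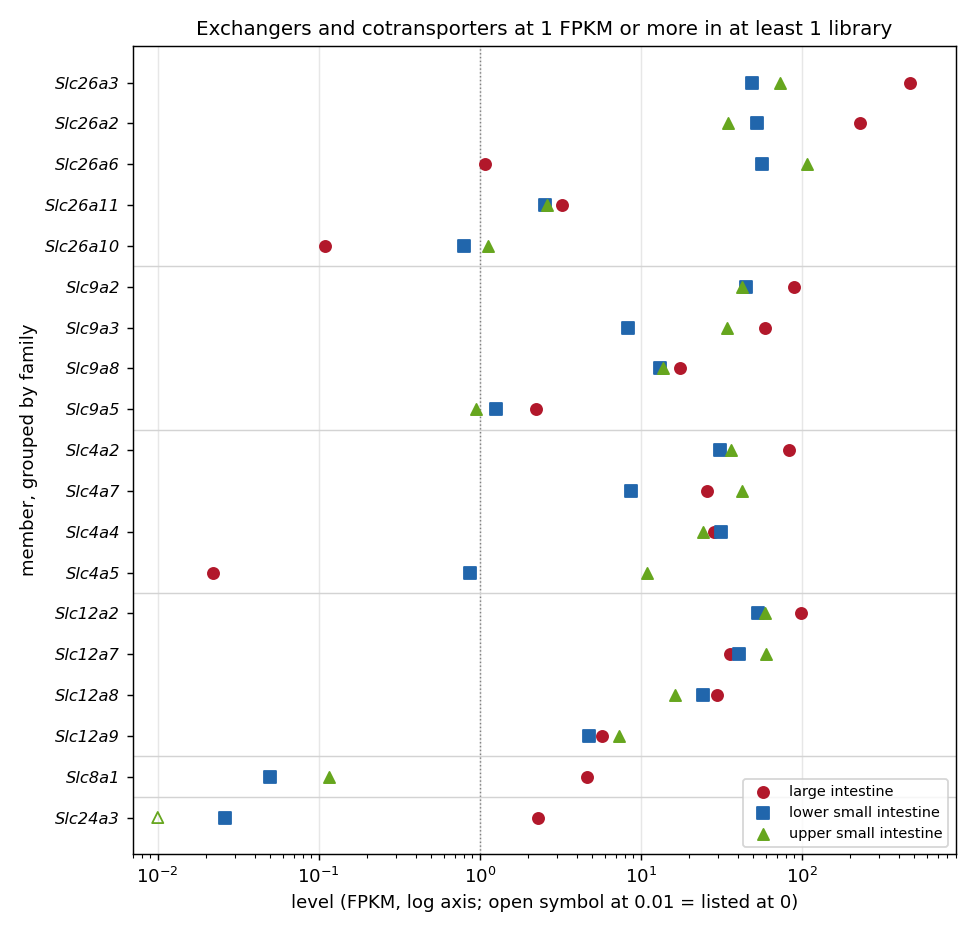
Level of 19 members at 1 FPKM or more in at least 1 library, in FPKM on a log axis, with a circle for the large, a square for the lower and a triangle for the upper library; the open symbol marks a gene listed at 0. Slc26a3 at 472 FPKM in the large library is the highest point, and Slc26a6, Slc4a5 and Slc26a10 have the large library far to the left of the upper.

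Against the lower small intestine, 7 of 20 measured members were higher in the large intestine (35% of the measured members, where 9.75% of all measured genes were higher) and 1 was lower (5%, where 10.5% of all genes were lower). The other 27 members were under 1 FPKM in both libraries. Against the upper small intestine, 6 of 22 measured members were higher in the large intestine (27.3%, with 11.2% of all genes) and 2 were lower (9.09%, with 11.7% of all genes). The median difference of the measured members was 0.51 against the lower and 0.48 against the upper library, beside 0.00 for all measured genes in both. The comparisons share the large intestinal library. Between the parts of the small intestine, none of 20 measured members was higher in the lower library (2.92% of all genes were) and 3 were lower (15%, with 3.92% of all genes). With so few members, 1 gene moves such a share by about 5%.

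Sorted by library, 15 of the 22 members at 1 FPKM or more were highest in the large, 1 was highest in the lower and 6 were highest in the upper library. For all 12579 genes at that level the shares were 41.3%, 29.2% and 29.4%, against 68.2%, 4.55% and 27.3% of the members. By the 2-fold rule, 5 members lay above both small intestinal libraries in the large intestine (Slc26a3, Slc26a2, Slc4a2, Slc8a1 and Slc24a3), as did 7.84% of all genes. Slc26a6 alone lay below both there, as did 7.52% of all genes. Slc9a3 and Slc4a7 were lower in the lower small intestine than in both other regions, a pattern of 0.739% of all genes, and Slc4a5 was higher in the upper small intestine than in both others, as were 2.66% of all genes. Of the 22 members, 0 were higher in the lower small intestine than in both others, as were 1.32% of all genes, and 0 were lower in the upper small intestine than in both others, as were 1.27% of all genes.

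The upstream bases of the genes with at least a 5-fold range between libraries and at least 10 FPKM are shown where RefSeq gives a start and no annotated untranslated region fills the window. They allow Slc26a3, high in the large intestine, Slc9a3, low in the lower small intestine, and Slc4a5, high in the upper small intestine, to be set side by side. Sequences are from RefSeq (GRCm38.p6), 5′ to 3′ on the gene's strand, and end just before the transcript start that RefSeq gives, or 2 bases earlier for Slc26a3. That start lies 47.3 kb inside the GENCODE gene for Slc26a3 and 17.5 kb inside it for Slc4a5, since GENCODE also holds transcripts that begin further upstream, and 44 bases before the GENCODE gene for Slc9a3. In the basic set of GENCODE transcripts, 1 of 1 for Slc26a3, 2 of 3 for Slc4a5 and 0 of 3 for Slc9a3 start within 5 bases of the RefSeq start. Which start the reads came from cannot be told from values per gene. Capitals mark letters that match any of 6 motifs searched on both strands: the letters TTTATG stood for CDX homeobox factors, CAAAGT served for the nuclear receptor HNF4, AGATAA was taken for the GATA zinc finger factors, GTTAAT stood for the homeobox factor HNF1, GGGCGG served for the SP1 family, and TATAAA is the TATA box.
Slc26a3, chr12:31437969-31438216, plus strand: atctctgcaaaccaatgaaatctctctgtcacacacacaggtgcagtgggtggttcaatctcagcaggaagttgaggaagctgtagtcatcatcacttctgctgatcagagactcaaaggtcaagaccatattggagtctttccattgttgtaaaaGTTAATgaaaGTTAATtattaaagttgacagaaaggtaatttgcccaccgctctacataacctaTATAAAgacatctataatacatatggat
Slc9a3, chr13:74121163-74121412, plus strand: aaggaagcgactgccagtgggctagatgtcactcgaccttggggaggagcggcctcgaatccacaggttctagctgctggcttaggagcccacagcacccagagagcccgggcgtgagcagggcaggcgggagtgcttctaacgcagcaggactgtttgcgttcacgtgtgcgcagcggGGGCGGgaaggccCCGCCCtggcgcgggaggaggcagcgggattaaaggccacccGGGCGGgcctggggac
Slc4a5, chr6:83237125-83237374, plus strand: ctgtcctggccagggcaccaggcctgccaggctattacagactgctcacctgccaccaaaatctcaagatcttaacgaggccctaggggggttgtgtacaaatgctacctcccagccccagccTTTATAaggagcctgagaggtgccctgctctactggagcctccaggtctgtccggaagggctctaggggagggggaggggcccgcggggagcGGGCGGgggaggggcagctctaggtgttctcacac
The Slc26a3 window is rich in A and T (38.3% G or C, where the median of 32851 RefSeq windows of 250 bases was 52.4%), and the Slc9a3 and Slc4a5 windows are rich in G and C (67.6% and 62.8%). Slc26a3 holds GTTAAT at 94 and 84 bases before the start and TATAAA at 30 bases. GTTAAT occurred in 6.43% of all windows and TATAAA in 12.4%. Slc9a3 holds GGGCGG 3 times, at 71, 58 and 16 bases before the start, and Slc4a5 holds it at 35 bases, with TATAAA at 127 bases. GGGCGG occurred in 32.7% of all windows. Windows were given for 35 of the 47 members, 45 windows in all, of which 11 held AGATAA (9.99% of all windows), 4 TTTATG (10.8%), 4 CAAAGT (12.6%), 2 GTTAAT, 17 GGGCGG and 10 TATAAA. Such matches are letters in a window and show no binding.

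The apical anion exchangers differed in opposite directions between the large and the small intestine. Slc26a3 encodes DRA, the chloride/bicarbonate exchanger whose loss causes congenital chloride diarrhoea in humans. It was at 472 FPKM in the large, 48.7 FPKM in the lower and 72.7 FPKM in the upper library, the most abundant member in the large intestine. It exceeded the lower library 9.68-fold (9.18 to 10.2) and the upper 6.48-fold (6.15 to 6.84), and the lower library lay below the upper by more than counting error, at a ratio of 0.67 (0.624 to 0.719). Slc26a3 lies on chromosome 12 at 31390871 to 31473917 (GENCODE M21, GRCm38, plus strand, ENSMUSG00000001225.12).

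Slc26a6 encodes PAT1, an apical anion exchanger of the small intestine that exchanges chloride for bicarbonate and secretes oxalate. It ran the other way, at 1.08 FPKM in the large, 56.8 FPKM in the lower and 108 FPKM in the upper library. The large library, with about 25 implied reads of this gene, had 0.0191 (0.0124 to 0.0284) of the lower level and 0.010 (0.00651 to 0.0149) of the upper level. Within the small intestine it was at 0.525 (0.493 to 0.56) in the lower relative to the upper library, a log2 difference of -0.92 that did not reach the 2-fold rule. Slc26a6 held 0.154% of the summed Slc26 FPKM in the large library, 35.1% in the lower and 49.2% in the upper. The gene lies on chromosome 9 at 108853283 to 108913049 (plus strand, ENSMUSG00000023259.16).

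A ratio of these exchangers taken inside a library is free of any scaling between libraries. Slc26a3 exceeded Slc26a6 435-fold (293 to 669) in the large intestine, whereas the ratio was 0.858 (0.801 to 0.92) in the lower and 0.673 (0.63 to 0.719) in the upper small intestine. Both small intestinal libraries thus held more Slc26a6 than Slc26a3 per length. Together the pair summed to 473, 105 and 181 FPKM.

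Slc26a2, a sulfate transporter mutated in human chondrodysplasias, was the second most abundant member in the large intestine at 229 FPKM, with 52.5 FPKM in the lower and 34.8 FPKM in the upper library. Its ratios were 4.36 (4.22 to 4.5) over the lower and 6.57 (6.28 to 6.88) over the upper library, and the lower library exceeded the upper 1.51-fold (1.43 to 1.59). Slc13a1, a sodium-coupled apical sulfate transporter of another family, was at 9.58, 126 and 98.8 FPKM, so that Slc26a2 exceeded it 23.9-fold (20.8 to 27.6) in the large library. The same ratio was 0.418 (0.4 to 0.437) in the lower and 0.352 (0.331 to 0.375) in the upper library. Slc26a11, also a sulfate transporter, was at 3.25, 2.54 and 2.63 FPKM, and no pair of these levels differed beyond counting error. Slc26a10 was at 0.109, 0.796 and 1.12 FPKM. Its annotation overlaps B4galnt1 on the opposite strand over 938 bases. B4galnt1 was itself at 56.0, 135 and 171 FPKM, and reads of the 2 genes cannot be told apart if strand was not used in counting.

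**Figure D2:**
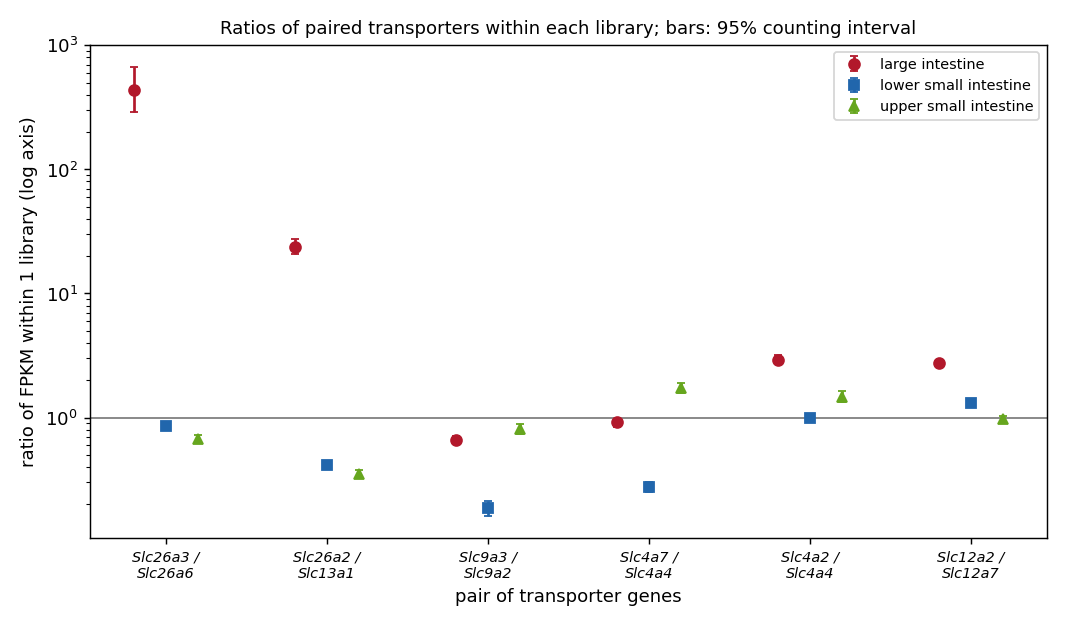
Ratio of FPKM of 6 pairs of transporter genes inside each library, on a log axis, with 95% counting intervals as bars; the line marks equal levels. The pair Slc26a3 over Slc26a6 stands at 435 in the large library and below 1 in both small intestinal libraries, and Slc9a3 over Slc9a2 and Slc4a7 over Slc4a4 are lowest in the lower library.

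Among the sodium/proton exchangers, the apical NHE3 gene was the member with the widest range. Slc9a3, which encodes NHE3, was at 58.7 FPKM in the large, 8.32 FPKM in the lower and 34.1 FPKM in the upper library. The large over lower ratio was 7.05 (6.1 to 8.15), the large over upper ratio 1.72 (1.56 to 1.9) and the lower over upper ratio 0.244 (0.209 to 0.285). The lower small intestine was thus low relative to both other regions, and the large over upper difference of 0.76 on the log2 scale stayed under the 2-fold rule. With libraries set to an equal FPKM sum it passed, at 1.17. Slc9a3 lies on chromosome 13 at 74121457 to 74169442 (plus strand, ENSMUSG00000036123.8).

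Slc9a2 encodes NHE2, another apical sodium/proton exchanger, and was the most abundant Slc9 gene in each library, with 88.8, 45.0 and 42.5 FPKM. It was higher in the large intestine by 1.97-fold (1.88 to 2.07) over the lower and 2.09-fold (1.97 to 2.22) over the upper library. These ratios straddle the 2-fold rule, with log2 differences of 0.96 and 1.05. The parts of the small intestine did not differ beyond counting error, with a lower to upper ratio of 1.06 (0.996 to 1.13). The ratio of Slc9a3 to Slc9a2 was 0.661 (0.619 to 0.705) in the large, 0.185 (0.161 to 0.212) in the lower and 0.804 (0.732 to 0.883) in the upper library.

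Slc9a8, encoding NHE8 of the apical membrane and Golgi, was at 17.6, 13.2 and 13.7 FPKM, with ratios of 1.34 (1.14 to 1.58) over the lower and 1.29 (1.08 to 1.56) over the upper library. Slc9a5 was at 2.22, 1.26 and 0.951 FPKM. Slc9a2, Slc9a3, Slc9a5 and Slc9a8 were all highest in the large library, and their differences from both others stayed positive under the pseudocounts and scalings tried. Slc9a4, an exchanger of gastric parietal cells, was at 0.271, 0.372 and 0.174 FPKM, Slc9a7 at 0.096, 0.112 and 0.055 FPKM and Slc9a9 at 0.598, 0.486 and 0.573 FPKM.

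The bicarbonate transporters divided by region in 3 ways. Slc4a2, which encodes the basolateral chloride/bicarbonate exchanger AE2, was higher in the large intestine at 83.3 FPKM, with 31.0 and 36.1 FPKM in the lower and upper libraries. The ratios were 2.69 (2.52 to 2.86) and 2.31 (2.16 to 2.48). The gene overlaps Fastk on the opposite strand over 2511 bases, and Fastk was at 48.2, 30.5 and 47.8 FPKM. Slc4a4, encoding the electrogenic sodium bicarbonate cotransporter NBCe1, was nearly level at 28.4, 31.4 and 24.5 FPKM. The large over lower ratio of 0.905 (0.825 to 0.991) became a log2 difference of 0.16 with libraries set to an equal FPKM sum, against -0.14 as deposited.

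Slc4a7, encoding the electroneutral sodium bicarbonate cotransporter NBCn1, was at 25.9, 8.72 and 42.3 FPKM. The large over lower ratio was 2.97 (2.74 to 3.23), and the lower library had 0.206 (0.19 to 0.223) of the upper level. Like Slc9a3 it was thus lowest in the lower small intestine. The large library had 0.613 (0.577 to 0.65) of the upper level, a log2 difference of -0.69 under the 2-fold rule. The ratio of Slc4a7 to Slc4a4 was 0.912 (0.839 to 0.993), 0.277 (0.253 to 0.303) and 1.73 (1.58 to 1.89) in the large, lower and upper libraries.

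Slc4a5, encoding the electrogenic cotransporter NBCe2, was at 0.022 FPKM in the large, 0.872 FPKM in the lower and 11 FPKM in the upper library. These levels rest on about 1, 51 and 430 implied reads. The lower library had 0.0793 (0.0583 to 0.107) of the upper level and the large library 0.002 (5.13e-05 to 0.0114). The log2 differences from the upper library were -3.55 for the large and -2.68 for the lower. Slc4a5 held 9.61% of the summed Slc4 FPKM in the upper library, 1.2% in the lower and 0.0159% in the large. It lies on chromosome 6 at 83219828 to 83304945 (plus strand, ENSMUSG00000068323.12).

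**Figure D3:**
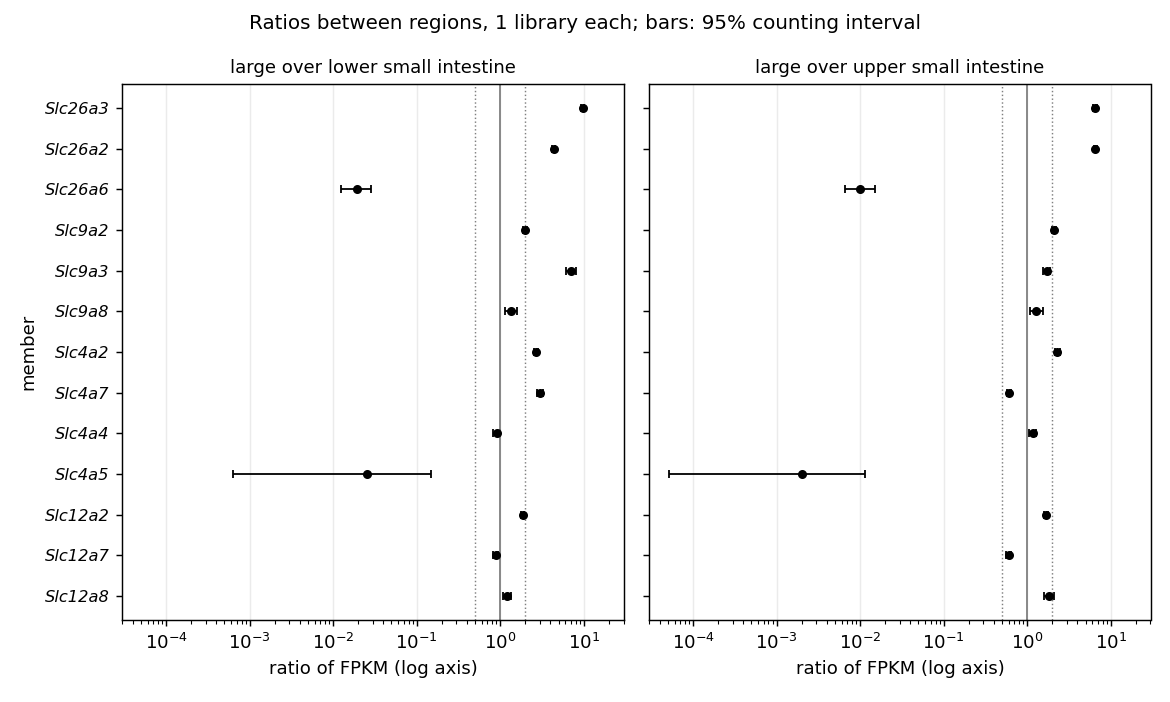
Ratio of FPKM of the large over the lower (left) and over the upper small intestine (right) for 13 members at 10 FPKM or more, on a log axis, with 95% counting intervals as bars and dotted lines at a 2-fold ratio. Slc26a6 and Slc4a5 lie far to the left in both panels, Slc26a3 and Slc26a2 to the right, and Slc9a3 and Slc4a7 stand further right against the lower library than against the upper.

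None of the 5 measured cation-chloride cotransporters passed the 2-fold rule in any comparison as deposited. Slc12a2, the basolateral NKCC1 that loads secreting cells with chloride, was highest in the large intestine at 99.3, 53.3 and 58.8 FPKM. Its ratios were 1.86 (1.79 to 1.94) over the lower and 1.69 (1.61 to 1.77) over the upper library. The log2 differences of 0.88 and 0.75 passed the rule at 1.19 and 1.15 with libraries set to an equal FPKM sum. Slc12a7, the potassium chloride cotransporter KCC4, was highest in the upper library at 36.0, 40.7 and 60.1 FPKM. The large library had 0.599 (0.562 to 0.638) of the upper level, while the difference from the lower library was -0.17 as deposited and 0.13 with the same sum. Inside each library Slc12a2 stood to Slc12a7 at 2.76 (2.61 to 2.92), 1.31 (1.24 to 1.38) and 0.979 (0.927 to 1.03).

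Slc12a8, reported in mouse small intestine to carry nicotinamide mononucleotide, was at 29.7, 24.4 and 16.2 FPKM, with a large to upper ratio of 1.84 (1.59 to 2.12). Slc12a9 was at 5.75, 4.76 and 7.27 FPKM, and its sign against the upper library turned with the scaling, -0.29 as deposited and 0.06 with the same sum. The widely expressed KCC1 gene Slc12a4 was at 0.06, 0.443 and 0.209 FPKM.

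**Figure D4:**
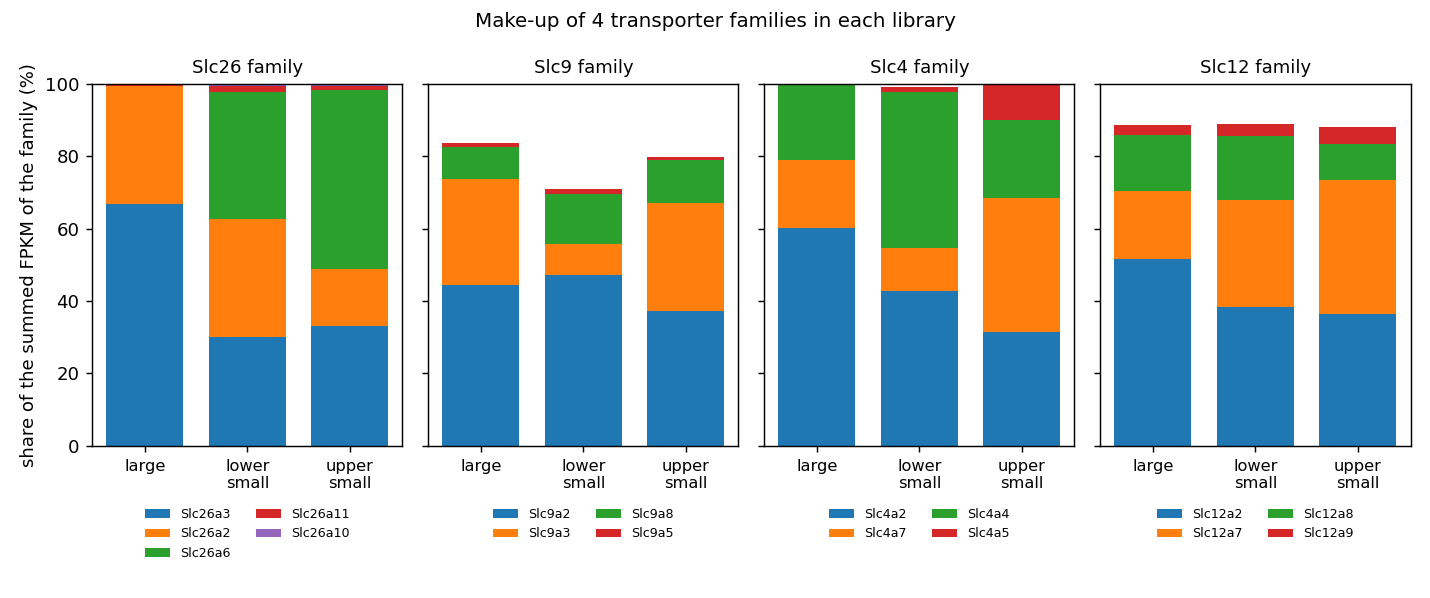
Share of each family's summed FPKM held by the members named in the legends, in percent, for 4 families and the large, lower and upper libraries; what is missing to 100% belongs to the rest of the family. Slc26a6 fills 49.2% of the Slc26 bar in the upper library and 0.154% in the large, and Slc4a2 fills 60.3% of the Slc4 bar in the large library.

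Of the 3 Slc8 and 5 Slc24 genes, Slc8a1 and Slc24a3 reached 1 FPKM, and both did so in the large library. Slc8a1, which encodes NCX1, an exchanger best known from heart and muscle, was at 4.65, 0.050 and 0.116 FPKM, on about 126, 2 and 3 implied reads. The ratios were 93.0 (22.2 to 685) over the lower and 40.1 (12.3 to 180) over the upper library. Slc24a3, encoding a potassium-dependent sodium/calcium exchanger, was at 2.31 and 0.026 FPKM in the large and lower libraries and listed at 0 in the upper. The large value rests on about 33 implied reads. In the large library the 8 fibroblast and muscle markers summed to 2.31 FPKM against 5.23 and 3.16 FPKM in the lower and upper libraries. Of these markers, 7 stayed below 1 FPKM in all libraries. Listed at 0 were 3 in the large library (Pdgfra, Des and Acta2), 0 in the lower and 2 in the upper (Des and Myh11). The 5 nerve and glia markers summed to 0.716, 0.610 and 0.850 FPKM, and all 5 stayed below 1 FPKM. In each library 2 of them were listed at 0, which in the large library were S100b and Sox10. The part of such cells in these levels was not tested. With a pseudocount of 5 FPKM neither gene passed the rule, at 0.93 and 0.92 for Slc8a1 and 0.54 and 0.55 for Slc24a3.

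The 25 members that stayed below 1 FPKM included those known from other organs, and the highest of their values was 0.598 FPKM. A listed 0 need not mean no RNA: the ribosomal protein gene Rpl26, named after its values were seen, was listed at 0, 6.14 and 0 FPKM. Listed at 0 in all libraries were 6 members: Slc24a1, Slc24a2, Slc24a4, Slc8a2, Slc26a5, which encodes the cochlear motor protein prestin, and Slc26a7. Slc12a1 and Slc12a3, the cotransporters of the kidney that loop and thiazide diuretics block, were at 0.025, 0 and 0 FPKM and at 0.035, 0.027 and 0 FPKM. Slc4a1, the band 3 protein of red cells, was at 0.025, 0 and 0 FPKM. Slc26a4, encoding pendrin, was at 0.114, 0.088 and 0.044 FPKM, and the neuronal chloride extruder gene Slc12a5 at 0.187, 0.087 and 0.043 FPKM. The others in this group were Slc4a3, Slc4a8, Slc4a9, Slc4a10, Slc4a11, Slc8a3, Slc24a5, Slc26a1, Slc26a8 and Slc26a9, beside Slc9a4, Slc9a7, Slc9a9 and Slc12a4 given above.

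Genes that work with these transporters were counted from 7 lists. Each count stands beside the shares of all measured genes, of which 9.75% were higher and 10.5% lower in the large library against the lower, and 11.2% higher and 11.7% lower against the upper. Of 14 listed regulators of NHE3 and DRA, the large intestine had 3 higher and 4 lower relative to the lower small intestine, and 2 higher and 7 lower relative to the upper. Pdzk1, a scaffold that binds apical exchangers, was at 3.63, 87.7 and 128 FPKM, and Slc9a3r1, the NHERF1 scaffold, at 164, 536 and 636 FPKM. The guanylin genes differed in opposite directions, Guca2a at 2063, 806 and 249 FPKM and Guca2b at 26.7, 522 and 1653 FPKM. Chp1, a cofactor that Slc9 exchangers bind, was at 195, 93.9 and 97.8 FPKM. Ahcyl1, encoding IRBIT, which activates bicarbonate transporters, was at 46.4, 41.9 and 99.1 FPKM.

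Carbonic anhydrases were higher in the large intestine in 5 of 7 measured in both comparisons, where 9.75% and 11.2% of all genes were higher. The 1 lower in both, where 10.5% and 11.7% of all genes were lower, was Car13 at 15.5, 35.6 and 44.7 FPKM. Car1 and Car2 were at 6414, 0.172 and 0.257 FPKM and at 995, 3.72 and 22.0 FPKM, and the membrane-bound Car4 was at 598, 162 and 158 FPKM. In the WNK kinase pathway, which sets the activity of Slc12 cotransporters, 1 of 9 measured genes was higher in both comparisons and none lower. That gene was Wnk4, at 17.1, 1.71 and 2.74 FPKM. The related kinases Oxsr1 and Stk39 of this pathway were at 16.7, 16.6 and 16.5 FPKM and at 14.9, 12.4 and 19.5 FPKM.

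Of 12 measured chloride and potassium channels and pumps, the large intestine had 4 higher and 2 lower relative to the lower small intestine (9.75% and 10.5% of all genes), and 5 higher and 1 lower relative to the upper (11.2% and 11.7% of all genes). Ano1 was at 51.5, 1.11 and 0.315 FPKM and Clca4b at 1.60, 492 and 373 FPKM. Best2 and Atp12a were at 26.7 and 86.6 FPKM in the large library and listed at 0 in both others. Both measured genes of the epithelial sodium channel were higher in the large library than in either other, Scnn1a at 53.9, 6.03 and 4.16 FPKM and Scnn1b at 3.51 FPKM in the large library and listed at 0 in the others. Of 4 measured calcium handling genes, 2 were higher in the large library when set against the lower and 1 when set against the upper. Trpv6 was higher in both, at 5.21, 0 and 0.554 FPKM. S100g, encoding calbindin-D9k, was higher against the lower library alone, at 229, 10.2 and 188 FPKM. It was lowest in the lower library as Slc9a3 was, and 0.739% of all genes were below both others there by the 2-fold rule. Of 5 measured genes of sulfate use, 1 was higher and 1 lower in each comparison of the large library, with Slc13a1 the lower gene in both. Papss2, which makes the activated sulfate donor, was at 234, 37.2 and 453 FPKM, again lowest in the lower library.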

How the data were processed

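Gene-level values were read from the 3 deposited tables, 1 per library. The unit, FPKM, was inferred from the values the authors deposited, since per the file headers only a library name is given. Per the submitters' processing notes the tools were TopHat2 2.0.13, Bowtie2 2.2.3, SAMtools 0.1.19 and Cufflinks 2.2.1 with build mm10, while their roles, the annotation, filters and strand setting were not found there. Median ratios to the geometric mean were 1.00, 1.01 and 0.999 for the large, lower and upper libraries, although the FPKM sums were 521651, 646262 and 693218, so the libraries appear to share a scale, set in a way the notes do not describe. Scaling of this kind hides a shift that most genes share.

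Members were matched by symbol. Differences of log2(FPKM + 1) were called at an absolute value of 1 among genes at 1 FPKM or more in either library, with Python 3.11.15, pandas 2.3.3 and SciPy 1.17.1, and the calls and intervals were tested on simulated data. Depth came from low values: in genes with 1 annotated transcript of at least 1500 nt, FPKM times length (less 200 nt, which fitted best) lay within 0.15 read of whole multiples of 0.11, 0.0845 and 0.126 FPKM per read per kb for 79.0%, 80.3% and 82.0% of 381, 417 and 372 genes. The steps were fitted to the same values. Reads per member used its shortest GENCODE M21 transcript with a RefSeq match. These implied reads are estimates and served for counting intervals alone. Members at 1 FPKM or more were named, except for 3 that are not reported here by name or value and enter the counts and sums only, and up to 4 genes of largest difference from each list, beside Chp1, Car13 and Oxsr1, which were named after their values were seen. The members and lists were chosen with earlier results of these data known. Alternatives changed the pseudocount, filter, scaling and fold rule.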

Additional observations from a re-analysis of the deposited data

How the results depend on the processing

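Counts of members higher or lower were recomputed under pseudocounts of 0.1 and 5 FPKM, no filter, a filter of 5 FPKM, 2 other scalings and a 3-fold rule. Of these 42 counts, 41 stayed within 1.5 times the reported count. Not all could move. With no filter none could change, because genes under 1 FPKM in both libraries cannot reach a 2-fold ratio of FPKM + 1. Members higher in the lower than in the upper library numbered 0 in every setting. Some counts lay at the limit itself, such as 9 against 6 for large over upper with the same sum of FPKM (17.8% of all genes). The exception among the 42 was the count higher in large than in upper small intestine. It was 3 of 22 with a pseudocount of 5 FPKM (5.84% of all genes) and 6 of 22 as reported (11.2% of all genes). That pseudocount shrinks low genes by construction, and Slc8a1, Slc24a3 and Slc9a2 (0.98) dropped under the rule. No member called by the rule changed sign. Rescaling to the same sum of FPKM moved the median of all genes by 0.28 (large against lower), 0.37 (large against upper) and 0.09 (lower against upper), and rescaling to the same upper quartile by 0.05, 0.08 and 0.03. The same sum brought Slc12a2 and Slc9a2 (1.27) past the rule against the lower library and Slc12a2, Slc12a8 (1.23) and Slc9a3 past it against the upper, and the same upper quartile brought Slc9a2 (1.02) past it against the lower. With a pseudocount of 0.1 FPKM, Slc26a10 (-2.55) and Slc9a5 (1.14) passed against the upper library. Of 248 differences of members recomputed under the pseudocounts and scalings, 194 moved by less than their counting interval. That interval is wide for genes with few reads, so the tally cannot show that their differences are stable. Slc24a3 against the lower library went from 1.69 to 4.26 with a pseudocount of 0.1 FPKM and still counts among the 194. The filters leave a gene's difference as it was and are not counted here. No paired analysis was possible because each region had 1 library, and leaving out a library leaves no comparison. Depth limits Slc4a5, Slc26a6, Slc8a1 and Slc24a3, whose low side rests on few implied reads.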

Other observations

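Some genes beside the members on the chromosome, chosen after the values were seen, did not share a member's difference. Slc26a3 lies between Dld, a dehydrogenase subunit at 91.9, 88.4 and 113 FPKM in the large, lower and upper libraries, and Cbll1, at 4.91, 5.85 and 4.76 FPKM, and neither passed the 2-fold rule. Slc9a2 lies 49848 bases from its relative Slc9a4, and the levels of the pair were 88.8, 45.0 and 42.5 FPKM against 0.271, 0.372 and 0.174 FPKM. Slc9a3 lies 45 bases from Exoc3, which was at 13, 12.2 and 12.9 FPKM. Slc12a7 lies 28228 bases from the amino acid transporter gene Slc6a19, which was at 1.42, 237 and 249 FPKM while Slc12a7 did not pass the rule. Other neighbours did pass it in the same direction as the member in at least 1 comparison. Tmem89, 1569 bases from Slc26a6, was listed at 0 in the large library and at 1.27 and 3.04 FPKM in the lower and upper libraries. Mthfd2, 745 bases from Slc4a5, was at 2.58, 9.30 and 12.7 FPKM. It passed with Slc4a5 for large against upper, but did not pass for lower against upper, where Slc4a5 did. Rin2, 33048 bases from Slc24a3, was at 24.6, 8.12 and 6.80 FPKM.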
